A study of Mus musculus with 47 samples.

Results

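This account describes 7 transcripts of the molecular clock in the mouse retina: the activators Arntl (also called Bmal1), Clock and Npas2, the ROR receptors Rora and Rorb, and the REV-ERB receptors Nr1d1 and Nr1d2. The genes were chosen by name for their place in the clock loop and matched by Ensembl identifier, which found all 7 among the 57180 genes measured. Whole retinas, 1 from the right eye of each mouse, came from C57BL/6 mice, a common inbred strain, aged 20 months (aged, 23 libraries) or 6 weeks (young, 24 libraries). All mice lived under alternating light and darkness, and retinas were collected every 4 h at 6 zeitgeber times (ZT, hours after lights on), with lights on until after ZT10 and off from before ZT14. There were 4 libraries for every age at every time, but 3 for aged ZT18. Levels are in RPKM as deposited, a read number scaled to exon length and to library size, so transcripts of different length can be compared.

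The clock turns on a loop of transcription and repression. The protein of Arntl pairs with that of Clock or Npas2, binds E-box sequences and switches on Per and Cry genes, whose proteins then block the pair. In a second loop the RORs activate and the REV-ERBs repress the same promoter element, and Arntl is the textbook target of both. In mice Rorb is also needed for rod formation upstream of Nrl, and Rora and Rorb take part in the control of cone genes. In liver, Arntl transcript cycles strongly over the day, in the opposite phase to Nr1d1.

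Promoter windows of 300 bases, 250 before and 50 after the annotated start, were taken from RefSeq (build GRCm38.p6) for all 7 genes, 11 windows in all. Both strands were searched for the ends of the ROR and REV-ERB element (TAGGTCA and, as a variant, TGGGTCA), the E-box (CACGTG) and a variant of it (CACGTT), and the D-box (TTATGTAA). Only 3 windows held any of these letters. They belong to Arntl, Rorb and Nr1d1 and are shown only because they hold a match. The other windows of Arntl and Rorb held none. The share of all promoter windows that hold any of these letters was not counted. Capitals mark the match, each sequence runs 5′ to 3′ in the direction of its gene, and AACGTG is the variant E-box read on the other strand.
Arntl, second window, chr7:113207261-113207560, plus strand: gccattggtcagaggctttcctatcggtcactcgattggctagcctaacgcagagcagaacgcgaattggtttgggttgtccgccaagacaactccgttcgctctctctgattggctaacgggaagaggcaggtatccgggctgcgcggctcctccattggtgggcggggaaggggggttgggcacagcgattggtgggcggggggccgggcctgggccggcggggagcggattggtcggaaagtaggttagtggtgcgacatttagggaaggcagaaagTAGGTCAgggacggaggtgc
Rorb, first window, chr19:19001068-19001367, minus strand: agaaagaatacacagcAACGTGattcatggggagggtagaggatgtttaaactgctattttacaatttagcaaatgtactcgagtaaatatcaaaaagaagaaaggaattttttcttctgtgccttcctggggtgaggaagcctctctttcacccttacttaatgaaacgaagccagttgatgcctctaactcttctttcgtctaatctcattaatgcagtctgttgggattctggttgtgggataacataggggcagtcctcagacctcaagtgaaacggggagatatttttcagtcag
Nr1d1, chr11:98775328-98775627, minus strand: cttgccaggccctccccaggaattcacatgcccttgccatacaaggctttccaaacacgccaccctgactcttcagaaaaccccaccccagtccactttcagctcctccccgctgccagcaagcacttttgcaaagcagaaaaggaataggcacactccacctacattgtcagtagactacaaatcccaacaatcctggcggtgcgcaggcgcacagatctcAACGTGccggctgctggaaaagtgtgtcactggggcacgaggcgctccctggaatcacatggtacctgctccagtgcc
The Arntl match, TAGGTCA, starts at base 281 of its window, inside the transcribed part. Of 32851 promoter windows in the same table, 2.61% hold TAGGTCA and 3.98% hold TGGGTCA. The variant E-box starts at base 17 in the Rorb window and at base 223 in the Nr1d1 window, and 4.68% of all windows hold it. CACGTG is present in 7.15% and TTATGTAA in 0.938% of all windows and in none of these 11. A match describes the letters only and is not a measured binding site.

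Libraries held 32.5 to 46.5 M (mega) reads in aged retinas and 32.04 to 55.5 M reads in young ones, with medians of 37.0 M and 37.2 M. The 8 rod markers summed to 14285 to 25326 RPKM in aged and 14731 to 26186 RPKM in young libraries, so every library was rich in photoreceptor RNA. A pair of libraries stood apart from the rest of their groups. Over all tested genes, aged ZT6 replicate 3 deviated from its group's median by 0.804 log2 units (root mean square) and young ZT10 replicate 4 by 1.18, against 0.235 to 0.585 in the other 45 libraries. In young ZT10 replicate 4 the markers of amacrine cells summed to 7.80 RPKM, those of Müller glia to 67.9 RPKM and those of microglia to 0.375 RPKM, all below the lowest of the other 45 libraries (37.6, 415.5 and 11.5 RPKM), while its rod markers were above the highest. In aged ZT6 replicate 3 the Müller glia, RPE and microglia sums were below that range, at 394.5, 65.9 and 6.17 RPKM. The part of tissue composition in their values was not tested. In whole tissue, fewer cells of a type and less RNA per cell cannot be told apart.

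The 7 transcripts spanned a wide range of levels and held the same order of mean RPKM at both ages. Nr1d1 was the most abundant, at 47.2 ± 9.35 RPKM in aged and 49.2 ± 6.45 RPKM in young retinas (SD, n = 23 and 24 here and in the next sentences). Nr1d2 averaged 29.5 ± 4.34 RPKM in aged and 30.5 ± 3.85 RPKM in young, and Rorb 26.9 ± 8.22 RPKM in aged and 27.9 ± 7.14 RPKM in young. Over all times these neighbours could not be ordered, because Nr1d2 exceeded Rorb in 12 of 23 aged and 12 of 24 young libraries. The order of their means changed with phase. Light means were 29.1 RPKM (aged) and 29.6 RPKM (young) for Nr1d2, against 20.7 and 21.6 RPKM for Rorb (n = 12 each). Dark means were 29.9 and 31.5 RPKM for Nr1d2, against 33.6 and 34.2 RPKM for Rorb (n = 11 and 12). Rora followed at 20.8 ± 4.86 RPKM in aged and 20.6 ± 2.82 RPKM in young, below Rorb in 16 of 23 aged and 20 of 24 young libraries. Arntl averaged 11.5 ± 1.22 RPKM in aged and 11.6 ± 0.624 RPKM in young, and Clock 8.02 ± 2.61 RPKM in aged and 7.96 ± 1.29 RPKM in young. Npas2, the partner that can stand in for Clock, was far below both, at 0.419 ± 0.142 RPKM in aged and 0.436 ± 0.153 RPKM in young. Clock exceeded it in every library. Npas2 rested on 33 to 148 reads per library, with a median of 77, while each of the other 6 transcripts had at least 2511.

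Rorb carried the widest daily cycle of the 7 at both ages and, with all libraries, was the only member called rhythmic in both. It encodes RORβ, an orphan nuclear receptor of retina and brain. At ZT2 its 4 libraries were at 24.1, 24.6, 27.6 and 21.4 RPKM in aged and at 26.4, 23.3, 24.3 and 24.5 RPKM in young. At ZT6 they were at 13.7, 13.1, 35.9 and 18.4 RPKM in aged and at 18.8, 18.1, 14.2 and 20.0 RPKM in young. At ZT10 they were at 19.3, 15.4, 15.9 and 18.5 RPKM in aged and at 22.6, 22.4, 19.8 and 25.0 RPKM in young. Levels were thus lowest in the middle and end of the light, apart from aged ZT6 replicate 3, which at 35.9 RPKM lay among the dark values. After lights off, at ZT14, the libraries were at 33.2, 30.2, 29.6 and 35.9 RPKM in aged and at 34.4, 28.4, 34.8 and 31.3 RPKM in young. At ZT18 they were at 36.2, 34.0 and 33.6 RPKM in aged and at 36.7, 33.0, 36.7 and 38.2 RPKM in young. At ZT22 they were at 32.8, 34.7, 35.5 and 34.4 RPKM in aged and at 32.5, 37.0, 34.8 and 33.2 RPKM in young. In young retinas all 12 dark libraries lay above all 12 light ones. In aged retinas the same held for all 11 dark libraries against the light libraries once ZT6 replicate 3 was left out.

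Averaged by phase, Rorb stood at 33.6 ± 2.14 RPKM in the dark (SD, n = 11) and 20.7 ± 6.57 RPKM in the light (SD, n = 12) in aged retinas, or 19.3 ± 4.71 RPKM in the light without ZT6 replicate 3 (n = 11). In young retinas it stood at 34.2 ± 2.77 RPKM in the dark and 21.6 ± 3.50 RPKM in the light (SD, n = 12 each). Rhythm was tested by fitting a cosine curve of 24 h to log2(RPKM + 0.5) with limma and taking the F test of that curve, adjusted by Benjamini-Hochberg over 15321 genes and called at an adjusted p under 0.05. The amplitude, the height of the fitted curve above its mean, was 0.56 ± 0.09 log2 units (SE) in aged and 0.51 ± 0.04 in young retinas, with adjusted p of 0.000347 and 5.03e-08. Those amplitudes correspond to peak-to-trough folds of 2.16 in aged and 2.01 in young, with peaks at ZT 19.2 ± 0.57 h (SE) in aged and 18.5 ± 0.31 h in young. The 6 bipolar cell markers, found in every library, summed to 133.1 to 211.6 RPKM in the dark (median 179.6) and 98.1 to 165.9 RPKM in the light (median 142.6) in aged retinas. In young retinas they summed to 145.7 to 241.0 RPKM in the dark (median 187.2) and 82.0 to 198.0 RPKM in the light (median 148.2), and their part in the Rorb step was not tested. Among 15321 genes the Rorb amplitude ranked 178th in aged and 216th in young retinas. Without the pair of libraries that stand apart, the aged amplitude was 0.65 ± 0.06 (adjusted p = 1.93e-07) and the young one 0.52 ± 0.04 (adjusted p = 7.38e-09).

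**Figure D1:**
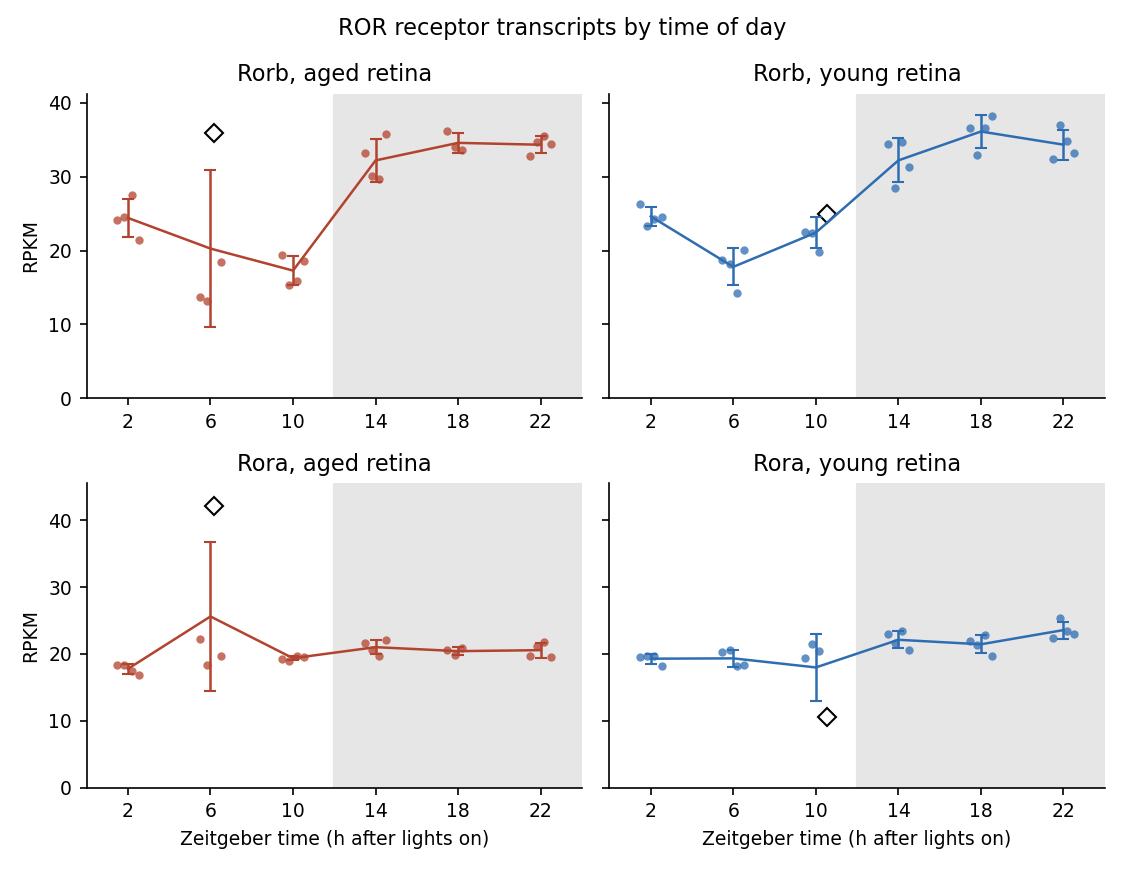
RPKM of Rorb (top) and Rora (bottom) against zeitgeber time in aged (left) and young (right) retinas; points are libraries, lines join group means with SD bars, grey marks darkness and open diamonds the pair of libraries that stand apart. Rorb libraries lie between 28.4 and 38.2 RPKM in the dark at both ages, and Rora shows no step of that size.

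Rora, the other ROR receptor, had a smaller fitted cycle and was not called at either age with all libraries. Its levels in aged retinas ran from 19.6 to 22.1 RPKM in the dark, with a median of 20.7, and from 16.9 to 42.2 RPKM in the light, with a median of 19.1. In young retinas they ran from 19.6 to 25.4 RPKM in the dark, with a median of 22.6, and from 10.7 to 21.5 RPKM in the light, with a median of 19.6. The highest aged and the lowest young light values came from the libraries that stand apart, 42.2 RPKM in aged ZT6 replicate 3 and 10.7 RPKM in young ZT10 replicate 4. The 24 h amplitude was 0.05 ± 0.07 (SE, adjusted p = 0.829) in aged and 0.17 ± 0.06 (adjusted p = 0.105) in young retinas. Without those libraries it was 0.08 ± 0.03 (adjusted p = 0.0796) in aged and 0.12 ± 0.03 (adjusted p = 0.0117) in young with a peak at ZT 18.2 ± 0.99 h. Leaving out young ZT10 replicate 4 alone gave the young call.

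The ratio of Rorb to Rora within each library sets the Rorb step against Rora. It contains the same Rorb values, so it is not separate support for that step. On the log2 scale, after 0.5 RPKM was added to each, the aged ratio averaged 0.69 ± 0.09 in the dark (SD, n = 11) and -0.03 ± 0.40 in the light (SD, n = 12). The young ratio averaged 0.60 ± 0.14 in the dark and 0.19 ± 0.39 in the light (SD, n = 12 each). The dark minus light difference was 0.72 in aged (two-sided permutation test with 100000 resamples, p = 0.00024 adjusted over 6 such tests) and 0.41 in young (adjusted p = 0.00696). Without the pair of libraries that stand apart it was 0.70 in aged and 0.50 in young, both with an adjusted p of 6e-05, whose raw p of 2e-05 is the smallest these resamples can give. With all libraries, 8 of 11 aged dark ratios and 0 of 12 young ones lay above every light ratio. Without the pair these numbers were 8 and 11. This ratio was chosen after the values were seen.

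Nr1d1, which encodes REV-ERBα, the receptor that represses through the element shared with the RORs, cycled in aged retinas. At ZT2 its libraries were at 42.1, 44.6, 33.1 and 29.6 RPKM in aged and at 35.6, 47.9, 43.6 and 45.7 RPKM in young. At ZT6 they were at 41.6, 40.9, 24.4 and 45.2 RPKM in aged and at 45.01, 48.6, 46.3 and 49.7 RPKM in young. At ZT10 they were at 55.5, 56.1, 42.2 and 50.1 RPKM in aged and at 48.7, 50.02, 53.7 and 36.0 RPKM in young. The lowest aged values lay at ZT2 and ZT6, where the 24.4 RPKM at ZT6 belonged to replicate 3, and the ages overlapped at all 6 times. The lower aged ZT2 values came from replicates 3 and 4. Their amacrine cell markers summed to 39.8 and 37.6 RPKM, against 108.4 and 96.7 RPKM in replicates 1 and 2. Their rod markers summed to 24912 and 25326 RPKM, against 15235 and 19365 RPKM. The part of this split in the Nr1d1 values was not tested. After dark, at ZT14, the libraries were at 52.5, 56.6, 53.6 and 60.1 RPKM in aged and at 63.9, 55.9, 45.5 and 57.2 RPKM in young. At ZT18 they were at 47.1, 54.4 and 51.5 RPKM in aged and at 54.6, 52.4, 49.5 and 53.3 RPKM in young. At ZT22 they were at 53.6, 59.9, 44.4 and 47.4 RPKM in aged and at 55.2, 46.1, 53.1 and 42.3 RPKM in young. Both ages had their highest mean at ZT14 and their lowest at ZT2.

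The fitted Nr1d1 amplitude was 0.31 ± 0.07 log2 units (SE, adjusted p = 0.0112) in aged retinas, a peak-to-trough fold of 1.54 with a peak at ZT 15.8 ± 0.84 h. In young retinas it was 0.15 ± 0.05 (adjusted p = 0.0860) with a peak at ZT 15.7 ± 1.26 h. Leaving out the pair of libraries gave calls at both ages, with 0.26 ± 0.06 (adjusted p = 0.00480) in aged and 0.16 ± 0.04 (adjusted p = 0.00955) in young, and removing young ZT10 replicate 4 alone gave the young call. With an F test across the 6 times in place of the cosine curve, aged Nr1d1 did not pass (adjusted p = 0.0564), and it passed without the pair (adjusted p = 0.0143). Young Nr1d1 did not pass that F test with all libraries (adjusted p = 0.275) or without the pair (adjusted p = 0.0682). The aged call ended when RPE and lens levels entered the fit as covariates (amplitude 0.23, adjusted p = 0.286), a fit in which Rorb passed at both ages (adjusted p = 0.0370 in aged and 1.16e-06 in young). The 7 RPE markers summed to 108.3 to 321.4 RPKM in the dark (median 160.2) and 65.9 to 148.3 RPKM in the light (median 105.4) in aged retinas. In young retinas they summed to 100.5 to 223.9 RPKM in the dark (median 126.2) and 32.4 to 139.7 RPKM in the light (median 112.1). Of these markers, the RPE-restricted Best1 was at 0 in at least 1 library, the other 6 were found in every library, and Rlbp1 is shared with Müller glia. Rlbp1 made up most of the sum on average, at a mean of 93.0 RPKM in aged and 91.2 RPKM in young. Ttr was next at 32.1 and 18.4 RPKM. The 8 lens markers summed to 2.74 to 1183 RPKM in the dark and 1.30 to 1455 RPKM in the light in aged retinas, and 6 of the 8 were at 0 in at least 1 library. In young retinas the lens sums were 0.263 to 2258 RPKM in the dark and 0.317 to 838.3 RPKM in the light. The part of this tissue in the Nr1d1 cycle was not tested beyond that fit. The 5 blood markers, found in every library, summed to 74.0 to 822.9 RPKM in the dark (median 314.9) and 12.2 to 233.2 RPKM in the light (median 59.2) in aged retinas. In young retinas they summed to 33.6 to 293.9 RPKM in the dark (median 55.5) and 14.1 to 281.1 RPKM in the light (median 59.1). The part of blood, or of the bipolar cell sums given beside Rorb, in the Nr1d1 cycle was not tested.

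Nr1d1 overlaps the end of Thra, a thyroid hormone receptor gene on the other strand, and the strand setting of the counting is not given in the sources used here, so reads of one could be credited to the other. Thra averaged 50.7 ± 9.52 RPKM in aged and 51.5 ± 5.51 RPKM in young retinas (SD, n = 23 and 24). It was not called rhythmic at either age, with amplitudes of 0.14 ± 0.08 (SE, adjusted p = 0.401) in aged and 0.05 ± 0.05 (adjusted p = 0.767) in young. Thra was at 25.7 RPKM in aged ZT6 replicate 3 and at 33.5 RPKM in young ZT10 replicate 4. In aged ZT2 replicates 3 and 4 it was at 38.8 and 35.6 RPKM. These libraries held the lower values of their groups for both Thra and Nr1d1. The part of shared reads in either transcript was not tested.

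**Figure D2:**
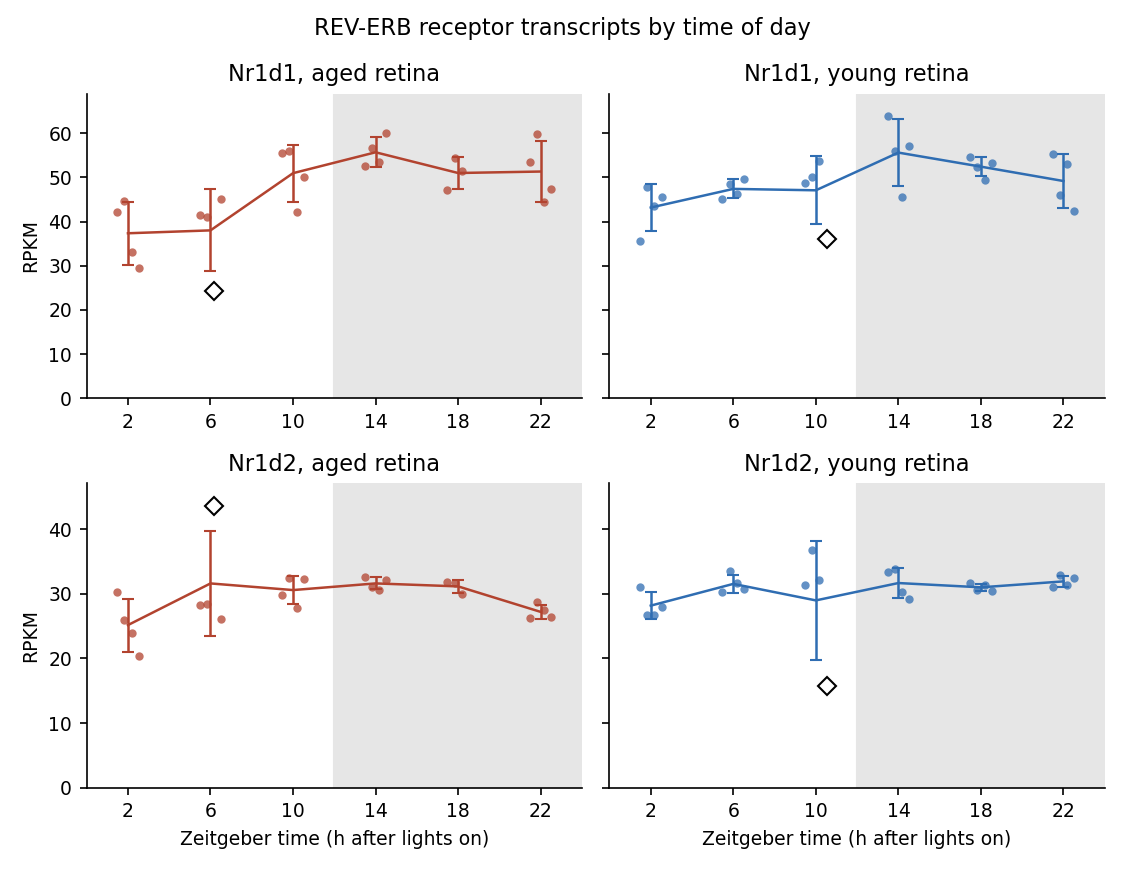
RPKM of Nr1d1 (top) and Nr1d2 (bottom) against zeitgeber time in aged (left) and young (right) retinas, drawn with points for libraries, lines and bars for group means ± SD, grey for darkness and open diamonds for the pair of libraries that stand apart. Nr1d1 means are lowest at ZT2 and highest at ZT14 at both ages, and the diamonds hold the most extreme Nr1d2 values, 43.6 RPKM in aged and 15.7 RPKM in young.

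Nr1d2, encoding the paralog REV-ERBβ, had a shallower course. It ran from 26.2 to 32.6 RPKM in the dark (median 30.6) and from 20.4 to 43.6 RPKM in the light (median 28.3) in aged retinas. In young retinas it ran from 29.2 to 33.9 RPKM in the dark (median 31.3) and from 15.7 to 36.7 RPKM in the light (median 30.9). The 43.6 and 15.7 RPKM again came from aged ZT6 replicate 3 and young ZT10 replicate 4. The amplitude was 0.15 ± 0.05 (SE, adjusted p = 0.121) in aged and 0.06 ± 0.06 (adjusted p = 0.836) in young retinas. Without those libraries the aged amplitude of 0.17 ± 0.03 passed (adjusted p = 0.00228, peak at ZT 14.1 ± 0.78 h), and the young one of 0.06 ± 0.03 did not (adjusted p = 0.200). Removing aged ZT6 replicate 3 alone gave that aged call. The aged minus young difference in amplitude without the pair, 0.10 ± 0.04, gave an unadjusted p of 0.0483 and an adjusted p of 0.630. The log2 ratio of Nr1d1 to Nr1d2 was higher in the dark than in the light by 0.30 in aged retinas (permutation test, adjusted p = 0.0120) and by 0.08 in young (adjusted p = 0.455). Without the pair of libraries these differences were 0.18 in aged (adjusted p = 0.0199) and 0.12 in young (adjusted p = 0.146). This ratio, and that of Clock to Npas2 given below, were also chosen after the values were seen.

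Arntl, the shared partner of Clock and Npas2, had no called cycle at either age. In aged retinas it ran from 10.1 to 12.9 RPKM in the dark (median 11.6) and from 7.97 to 13.9 RPKM in the light (median 11.6). In young retinas it ran from 9.78 to 12.4 RPKM in the dark (median 11.6) and from 10.9 to 12.8 RPKM in the light (median 11.9). Dark and light libraries overlapped throughout, and the lowest value, 7.97 RPKM, belonged to aged ZT6 replicate 3. The young amplitude was 0.02 ± 0.03 log2 units (SE, adjusted p = 0.913), which is a peak-to-trough fold of 1.02, and the aged one was 0.05 ± 0.05 (adjusted p = 0.691), a fold of 1.07. By amplitude Arntl ranked 14130th in aged and 15134th in young retinas among 15321 genes. Neither age passed without the pair of libraries (adjusted p = 0.601 in aged and 0.869 in young). The phase of so flat a curve is not determined, and its peak times are not given.

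Clock, a histone acetyltransferase and the usual partner of Arntl, also lacked a called cycle. It ran from 6.72 to 8.68 RPKM in the dark and from 6.06 to 19.2 RPKM in the light in aged retinas, with medians of 7.23 and 8.03. In young retinas it ran from 6.61 to 9.72 RPKM in the dark and from 3.70 to 9.45 RPKM in the light, with medians of 7.78 and 8.07. The 19.2 and 3.70 RPKM were aged ZT6 replicate 3 and young ZT10 replicate 4. Amplitudes were 0.16 ± 0.09 (SE, adjusted p = 0.378) in aged and 0.06 ± 0.08 (adjusted p = 0.854) in young, and 0.06 ± 0.05 and 0.04 ± 0.05 without that pair (adjusted p = 0.654 and 0.734).

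Npas2, the low-level substitute for Clock, varied widely around a low mean, from 0.205 to 0.691 RPKM in aged and from 0.124 to 0.786 RPKM in young retinas. Its lowest young value was in young ZT10 replicate 4, and the highest in a ZT22 library. The amplitude was 0.10 ± 0.07 (SE, adjusted p = 0.473) in aged and 0.18 ± 0.06 (adjusted p = 0.111) in young retinas. Neither cycle was called, so its fitted peaks, at ZT 12.3 ± 2.6 h in aged and 21.8 ± 1.34 h in young, are poorly determined. The test of a different rhythm gave an unadjusted p of 0.0174 and an adjusted p of 0.606. The log2 ratio of Clock to Npas2 differed between dark and light by -0.18 in aged and -0.07 in young retinas and did not pass the permutation test at either age (adjusted p = 0.209 and 0.456).

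**Figure D3:**
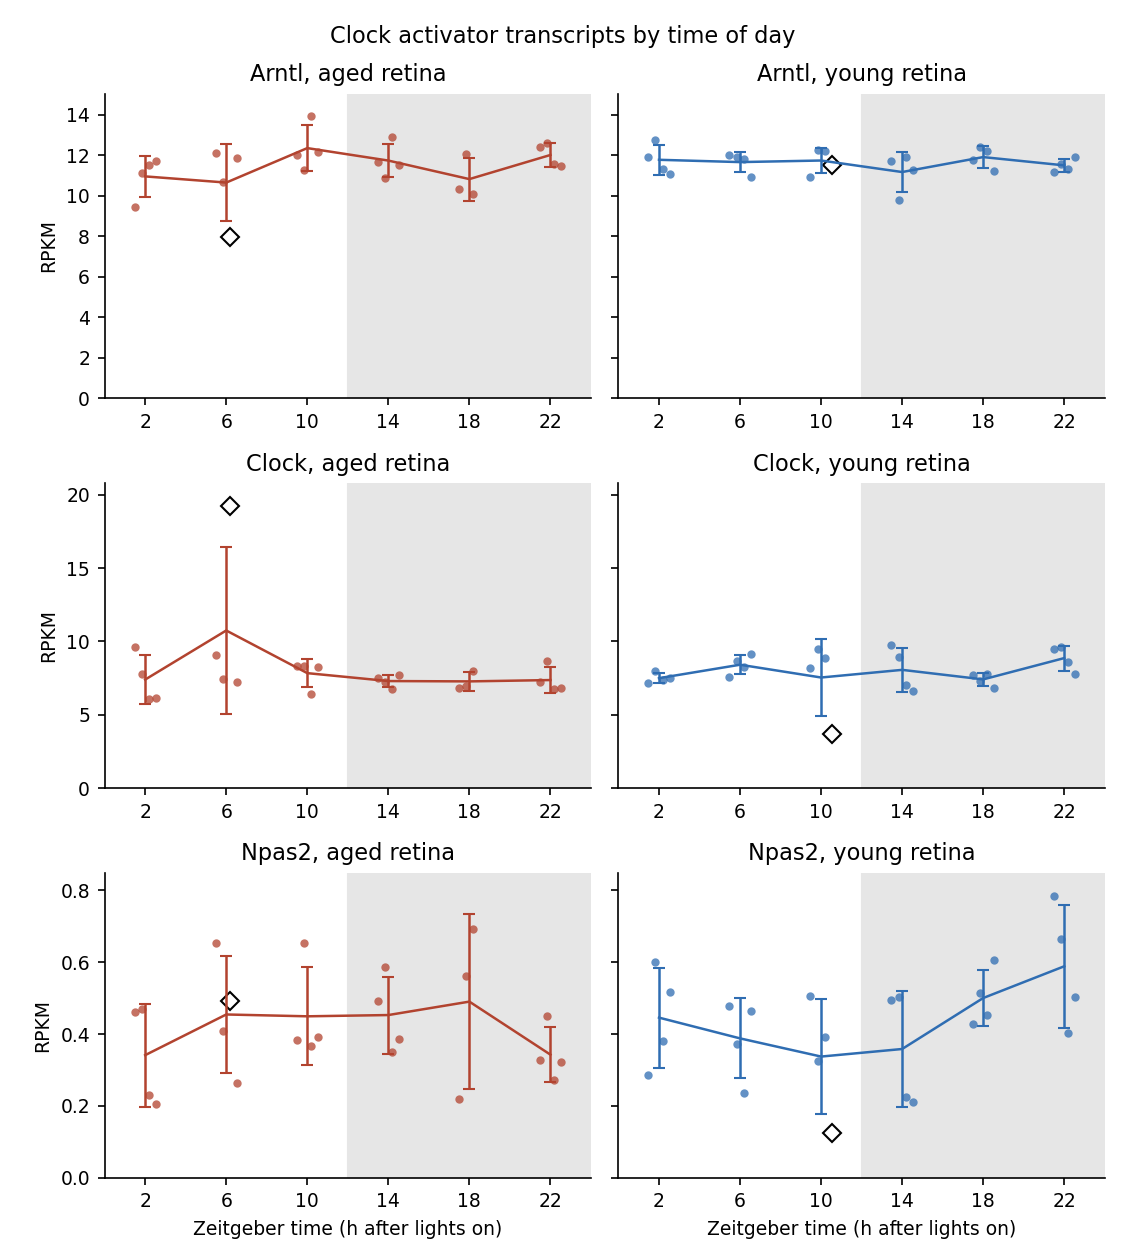
RPKM of Arntl, Clock and Npas2 (top to bottom) against zeitgeber time in aged (left) and young (right) retinas, with points for libraries, lines and bars for group means ± SD, grey for darkness and open diamonds for the pair of libraries that stand apart. Arntl stays between 7.97 and 13.9 RPKM in every library, and the Clock values of 19.2 and 3.70 RPKM are diamonds.

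In all, 2 of the 7 transcripts were called rhythmic in aged retinas (Rorb and Nr1d1) and 1 in young retinas (Rorb), where 14.4% and 19.7% of all 15321 tested genes were called. At an unadjusted p under 0.05, 3 passed in aged and 4 in young, beside 30.1% and 31.2% of all tested genes. Rorb passed at both ages, as did 7.56% of all tested genes. The median amplitude of the 7 was 0.15 in aged and 0.15 in young, beside 0.15 and 0.13 over all tested genes. Without the pair of libraries, 3 of 7 were called in aged (Rorb, Nr1d1 and Nr1d2) and 3 in young (Rorb, Nr1d1 and Rora), beside 27.4% and 34.1% of the 15272 genes then tested. None of the 7 had a rhythm called different between the ages by limma, while 1 passed unadjusted (Npas2) beside 7.75% of all tested genes, and 0.00653% of all tested genes were called. For Rorb the aged minus young difference was 0.05 ± 0.09 in amplitude (SE) and 0.67 ± 0.67 h in peak time (adjusted p = 0.728). For Nr1d1 it was 0.16 ± 0.09 in amplitude and 0.17 ± 1.72 h in peak time (adjusted p = 0.606). Without the pair of libraries no member was called for a different rhythm either, nor was any tested gene (0%), and Npas2 and Nr1d2 passed unadjusted beside 7.86% of the genes then tested. So Nr1d1, called in aged and not in young retinas, is not shown to differ in rhythm between them.

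**Figure D4:**
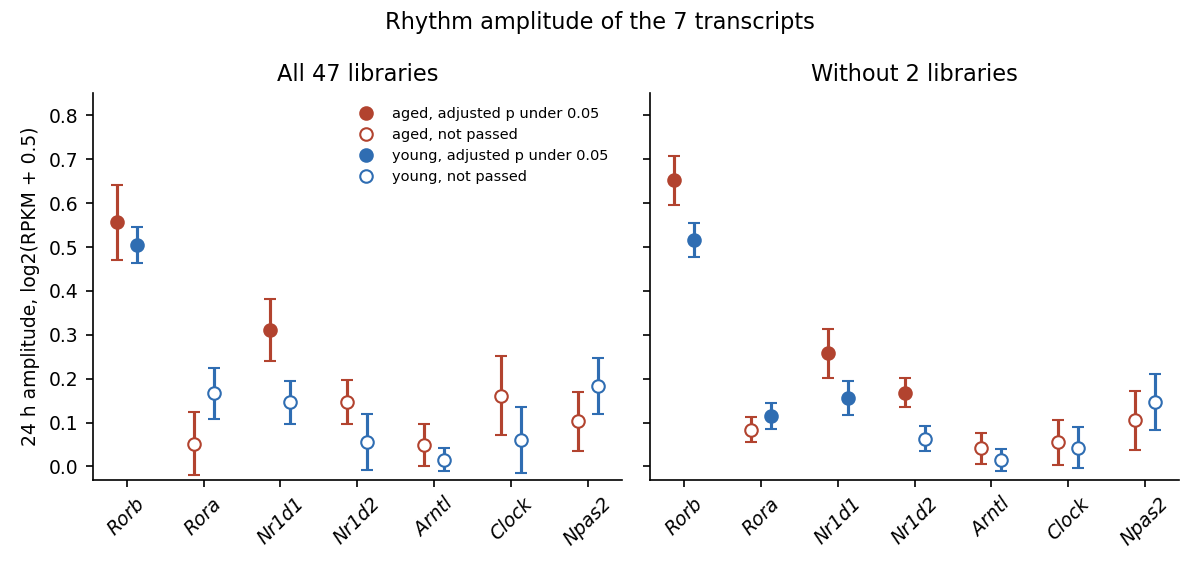
24 h amplitude on log2(RPKM + 0.5) with SE bars for the 7 transcripts in aged (red, left of each pair) and young (blue) retinas, from all 47 libraries (left panel) and without the pair that stands apart (right panel); filled points had an adjusted p under 0.05. Rorb stands at 0.56 and 0.51 in the left panel, above the other 6 at each age.

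Across the whole day, none of the 7 transcripts was called for a difference between the ages. limma with time as a factor gave aged minus young log2 differences of -0.03 for Arntl (95% interval -0.10 to 0.05), -0.02 for Clock (-0.18 to 0.15) and -0.02 for Npas2 (-0.16 to 0.12). Rora differed by 0.01 (-0.12 to 0.13) and Rorb by -0.06 (-0.19 to 0.07). The REV-ERB receptors differed by -0.07 for Nr1d1 (-0.20 to 0.05) and -0.05 for Nr1d2 (-0.17 to 0.07). Adjusted p ran from 0.664 to 0.983, 0 of 7 passed unadjusted beside 15.7% of all tested genes, and 4.24% of all tested genes were called, or 0.49% with a fold over 1.5 as well. Their median difference was -0.03, beside -0.02 over all tested genes. The intervals of all 7 excluded a change of 1.5-fold in either direction.

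Removing the pair of libraries narrowed these intervals and called 2 of the 7, beside 16.6% of the genes then tested. Nr1d2 was lower in aged retinas, with a log2 difference of -0.12 (-0.18 to -0.06, adjusted p = 0.00777), at 28.8 ± 3.12 RPKM in aged and 31.2 ± 2.23 RPKM in young (SD, n = 22 and 23). Rora was lower in aged retinas too, with a difference of -0.08 (-0.13 to -0.03, adjusted p = 0.0194), at 19.8 ± 1.44 RPKM in aged and 21.1 ± 1.90 RPKM in young. Its sign was the opposite with all libraries. Leaving out any 1 library called none of the 7, and without the pair but with median-ratio scaling Nr1d2 alone was called. Clock (-0.12, adjusted p = 0.0745) and Rorb (-0.10, adjusted p = 0.102) did not pass, nor did Arntl (-0.01), Npas2 (-0.05) and Nr1d1 (-0.06).

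**Figure D5:**
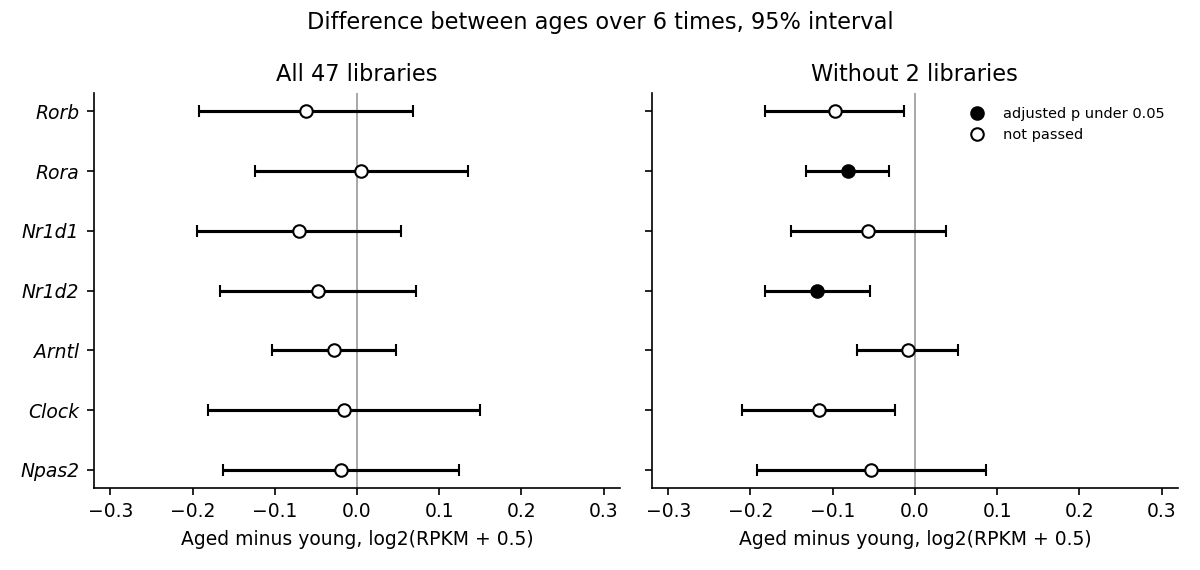
Aged minus young difference on log2(RPKM + 0.5) over the 6 times, with 95% intervals, from all 47 libraries (left) and without the pair that stands apart (right); filled points had an adjusted p under 0.05. All 7 intervals span 0 on the left, and Rora and Nr1d2 lie below 0 on the right at -0.08 and -0.12.

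At single times none of the 42 combinations of transcript and time was called, while the share of all tested genes called was 0.144% for ZT2, 3.12% for ZT6, 0.496% for ZT10, 0.248% for ZT14, 0.255% for ZT18 and 0.17% for ZT22. Unadjusted, 2 passed at ZT6 (Rora and Nr1d1) beside 19.8% of all tested genes, 1 at ZT10 (Rorb) beside 12.6% and 1 at ZT22 (Npas2) beside 4.13%. Both ZT6 passes were lost without the pair of libraries, where Rora differed by 0.05 (unadjusted p = 0.403) and Nr1d1 by -0.15 (unadjusted p = 0.207). In that set Rorb (-0.24, unadjusted p = 0.0244) and Nr1d2 (-0.19, unadjusted p = 0.0185) passed at ZT6 in their place, beside 11.8% of the genes then tested. The F test of the age by time interaction called none of the 7 and 0% of all tested genes, and no member passed it unadjusted, beside 4.8% of those genes. The aged and young ranges did not overlap in 3 of the 42 combinations, against 6.55% of all gene and time pairs, so such a count is near the background. At ZT10 Rorb was at 15.4 to 19.3 RPKM in aged and 19.8 to 25.0 RPKM in young, a log2 difference of -0.37 ± 0.16 (SE, adjusted p = 0.376). At ZT22 Rora was at 19.6 to 21.8 RPKM in aged and 22.4 to 25.4 RPKM in young (-0.19 ± 0.15, adjusted p = 0.926). At the same time Nr1d2 was at 26.2 to 28.7 RPKM in aged and 31.0 to 32.9 RPKM in young (-0.23 ± 0.14, adjusted p = 0.926). In each of the 3 the aged values were the lower ones, and without the pair of libraries their adjusted p were 0.220, 0.0949 and 0.133.

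Other genes of the clock loop were counted for comparison. Of 14 listed genes 13 were tested, and 8 were called rhythmic in aged and 7 in young retinas, beside 14.4% and 19.7% of all tested genes. Among them Per1, a repressor of the Arntl and Clock pair, had amplitudes of 0.37 ± 0.07 (SE, adjusted p = 0.00257) in aged and 0.26 ± 0.05 (adjusted p = 0.00362) in young, with peaks at ZT 14.5 ± 0.73 h and 15.1 ± 0.79 h. Bhlhe41, a repressor that binds E-boxes, had 0.20 ± 0.03 (adjusted p = 0.000842) in aged and 0.16 ± 0.03 (adjusted p = 0.00428) in young. Ciart, another repressor of the same activators, had 0.60 ± 0.11 in aged (adjusted p = 0.00169). In the set without the pair of libraries 9 were called at each age, beside 27.4% and 34.1%. None of the 13 was called for age over all times (3 passed unadjusted) beside 4.24% of all tested genes, and 3 were called without the pair (Dbp, Per3 and Tef) beside 16.6%. At ZT6 1 was called, where 3.12% of all tested genes were: the output factor Dbp, lower in aged retinas with a log2 difference of -0.91 ± 0.26 (SE, adjusted p = 0.0439). Without the pair its ZT6 difference was -0.40 ± 0.13 (adjusted p = 0.139) and none of the 13 was called at that time, beside 1.38% of the genes then tested.

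Cofactors through which the REV-ERBs repress and the RORs activate were counted as well. Of 13 tested, 2 were called rhythmic in aged retinas and 6 in young, beside 14.4% and 19.7% of all tested genes. None was called for age (3 passed unadjusted), beside 4.24%. Leaving out the pair, 6 were called rhythmic in aged retinas, 8 in young and 6 for age, beside 27.4%, 34.1% and 16.6% of the genes then tested. Hdac3, the histone deacetylase recruited by REV-ERBs through co-repressors, had amplitudes of 0.18 ± 0.05 (SE, adjusted p = 0.0450) in aged and 0.17 ± 0.04 (adjusted p = 0.00505) in young. Tbl1xr1, a subunit of the same co-repressor complex, had 0.22 ± 0.05 in both aged (adjusted p = 0.00714) and young (adjusted p = 0.0144). Ncoa1, a nuclear receptor co-activator, had 0.25 ± 0.04 in young (adjusted p = 0.000895).

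Among 6 retinal genes known to depend on Rora or Rorb in mice, 5 were tested. Prdm1, a photoreceptor fate factor, was lower in aged retinas over all times, with a log2 difference of -0.26 ± 0.07 (SE, adjusted p = 0.0120). The other 4 were not called, which makes 1 call of 5 beside 4.24% of all tested genes. The Prdm1 difference was -0.28 ± 0.07 without the pair of libraries (adjusted p = 0.00311), again 1 call of 5, beside 16.6% of the genes then tested. Arr3, cone arrestin, was lower in aged retinas at ZT6, with a log2 difference of -0.65 ± 0.14 (adjusted p = 0.00585), 1 call of 5 beside 3.12% of all tested genes. Without the pair that difference was -0.44 ± 0.12 (adjusted p = 0.0395), beside 1.38%. Arr3 was called rhythmic at both ages, with amplitudes of 0.53 ± 0.07 in aged and 0.62 ± 0.06 in young and peaks at ZT 13.02 ± 0.49 h and 11.2 ± 0.37 h. Prdm1 was called rhythmic in young retinas, with 0.17 ± 0.04 and a peak at ZT 18.4 ± 0.83 h (adjusted p = 0.00544). In this list 1 of 5 was called rhythmic in aged and 2 of 5 in young retinas, beside 14.4% and 19.7% of all tested genes.

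Likeness was measured as Pearson's r of log2 group medians over the 12 groups, among 12311 named genes, and describes shape only, since all genes share the same libraries. The course of Rorb was most like those of Drd4, the dopamine D4 receptor (r = 0.98), Nin (0.97) and Nphp4 (0.97). For Nr1d1 the closest were Ip6k1 (0.98), Gjd2, the neuronal gap junction protein connexin 36 (0.96), and Agap3 (0.96). For Nr1d2 they were Itgav (0.94), Sstr2, a somatostatin receptor (0.92), and Fam13c (0.92). Rora came closest to Creb1 (0.92), Cpeb4 (0.91) and Fgf9 (0.89). Clock came closest to Kif26b (0.96), Nsd2 (0.95) and Ptprd (0.95), and Arntl to Ephb4 (0.85), Lrrc8a (0.85) and Tmem204 (0.84). Genes among the 3 most like Npas2 were Ptms (0.89) and Cyld (0.86). The 50th highest r was 0.93 for Rorb, 0.88 for Nr1d1, 0.85 for Nr1d2 and 0.78 for Rora. For Clock, Arntl and Npas2, which had no called cycle, it was 0.91, 0.71 and 0.68. The genes named are thus the top of a long ranking and are not shown to be particular to a member. Among the 7 themselves the highest r was 0.78, between Nr1d1 and Nr1d2, while Rorb and Rora reached 0.55 and Arntl and Npas2 stood at -0.50.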

How the data were processed

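Polyadenylated RNA of dissected retinas was sequenced from randomly primed cDNA, as the labels' protocols state. FastQC 0.23.4, HISAT2 2.2.1, Subread 2.0.6 and build GRCm39 appear in the submitters' processing notes. Which annotation release was counted, and with what strand setting, is not given in the sources used here. Values in RPKM were deposited by the authors with 1 column per library, and 1 further column that no sample matches was left out.

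Per the series' design text, the authors used edgeR for age, MetaCycle for rhythms and CircaCompare for their differences. RPKM values are not counts, so limma 3.58.1 (R 4.3.3, eBayes with trend) was used here on log2(RPKM + 0.5) for genes that reached 0.5 RPKM in 12 or more libraries, and a 24 h cosinor for rhythms. Fold changes on this scale understate the change of low genes. The fits were tested on simulated data with independent noise for each gene and library. Those data held no library that stands apart, so that test does not cover the effect of the pair. All 7 members passed the filter. Whole reads came out, within 0.01 of a whole number, for 93.8% of 34957 genes using GENCODE M21 exon lengths, which served for depth only. No pair of replicates was close enough to be 1 library deposited again (mean chi-square per gene 7.67 to 805.9 over 69 pairs).

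Members, lists, promoter motifs and the libraries set apart were chosen with earlier results of these data known. Named genes were the members, up to 3 genes per list by adjusted p, and the 3 genes most like each member, of which 1 is not reported here. The labels give 4 mice per age and time. Alternatives changed pseudocount, filter, scaling, weights, block, covariates, moderation, libraries and rhythm test.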

Additional observations from a re-analysis of the deposited data

Results flagged for a closer look

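Among 77 sets of 4 libraries (1 transcript at 1 age and time), 6 held a library whose gap to its nearest neighbour exceeded Dixon's 95% critical value, and chance flags about 1 in 20. In 3 of the 6 the library was aged ZT6 replicate 3, with Clock at 19.2 RPKM (the others 7.21 to 9.05), Rora at 42.2 RPKM (18.4 to 22.2) and Nr1d2 at 43.6 RPKM (26.1 to 28.4). Clock was lowest in aged ZT10 replicate 3, at 6.39 RPKM against 8.28 to 8.35 RPKM in the others. Npas2 was highest in aged ZT10 replicate 2, at 0.654 RPKM against 0.367 to 0.393 RPKM. Rora was lowest in young ZT2 replicate 4, at 18.2 RPKM against 19.6 to 19.7 RPKM.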

How the results depend on the processing

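Of 4756 values for single transcripts under other settings, 4715 kept their side of the threshold, 35 were newly called and 2 lost a call. Another 4 were newly called with their sign turned round. Most of the 4756 values came from 47 fits that each left out 1 library, so the share kept says little about the other settings. Signs were compared only for age differences called in either fit, so an uncalled difference could change sign and still count as kept. Clock at ZT6, for instance, went from an aged minus young difference of 0.22 to -0.09 without the pair of libraries. The called cycles in young retinas numbered 3 with median-ratio scaling, 2 with quantile normalization, 3 with array weights and 3 without the pair of libraries that stand apart. In that reduced set they numbered 4 with quantile normalization, 4 with median-ratio scaling and 3 with the replicate block, settings chosen after seeing the data. Leaving out each library in turn gave 1 to 3 in young retinas, the 3 without young ZT10 replicate 4, and 2 to 3 in aged retinas. In aged retinas they numbered 1 with RPE and lens covariates, where Nr1d1 had an adjusted p of 0.286, and 1 with an F test across the 6 times, where it had 0.0564. Without the pair and with median-ratio scaling they numbered 4. For age over all times, array weights called 2 members, and the set without the pair called 2, or 2 with quantile normalization, 1 with median-ratio scaling and 3 with the replicate block. Rora (0.01 with all libraries) turned to -0.0778 with array weights (adjusted p = 0.0432), -0.0819 without the pair, -0.0860 with quantile normalization as well and -0.0815 with the block as well. Array weights called 4 combinations at single times and 1 interaction. The causes were not tested. Replicate numbers were not used to pair the samples in the main fits. Same-numbered aged and young libraries deviated together with correlations of -0.49 to 0.43, with 10 of 23 over 0.1. Their median was 0.009, beside 0.045 for libraries of different numbers. Such correlations cannot show whether same-numbered libraries were handled together. With all libraries the replicate block changed no count (2 rhythmic in aged, 1 in young, 0 for age). The low Npas2 read number limits what can be seen of that transcript.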
